A study of Mus musculus with 6 samples.

Results

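The 10 genes, written as Gfap, Vim, Lcn2, C4b, C3, Serpina3n, Serping1, Cd44, Osmr and Stat3, were followed across the cell types of the injured mouse spinal cord. They are a list of genes known from reactive astrocytes and from the acute-phase response, and a gene was taken when its symbol was in the deposited count table, which held all 10 of them among 19954 symbols. Reactive astrocytes are the star-shaped support cells of the central nervous system after damage: they enlarge, fill with intermediate filament proteins and secrete complement and protease inhibitor proteins. The acute-phase response is the rise of a set of secreted proteins after injury or infection, driven largely by cytokines of the interleukin-6 family. Those cytokines signal through gp130-type receptors, among them the oncostatin M receptor encoded by Osmr, to the transcription factor encoded by Stat3.

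Nuclei were taken from lumbar spinal cord. The mice were wild type C57BL/6 with a severe thoracic contusion that had paralysed both legs. All mice had spent 30 min on a treadmill before collection, with targeted epidural electrical stimulation (TESS, 3 samples) or without it (CON, 3 samples, whose condition label is paralyzed). TESS was given with 5-HT1a and D1 agonists, drugs that act on a serotonin and a dopamine receptor, and whether the CON mice had them is not clear from the labels. The tissue label (lumbar) and the extraction protocol (the thoracic site of injury) differ, and no uninjured group is among the samples, so each difference below is between injured cords with and without stimulation. The labels do not say that each sample was a separate animal, so p-values measure the spread between these samples, which may be technical.

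The series describes 20484 nuclei and 6171 neurons, and the deposited table held 18514 and 6035. There were 2192 to 3780 nuclei per sample, with 1582104 to 4037976 UMIs per sample (unique molecular identifiers, 1 per captured RNA molecule). The TESS samples were shallower, with medians of 424 to 598 UMIs per nucleus against 544.5 to 707 in CON. CON 1, CON 2 and TESS 1 carry batch number 3, while CON 3, TESS 2 and TESS 3 are each alone in batches 4, 2 and 1, so the value inside batch 3 (1 TESS against 2 CON samples) is given beside each called gene. The labels do not define these numbers. The authors named 6035 neurons, 8837 oligodendrocytes, 1091 astrocytes, 1656 microglia, 674 oligodendrocyte precursor cells and 221 endothelial cells. The defining markers of each type were highest in it for 10 of 10 astrocyte, 8 of 8 oligodendrocyte, 5 of 5 precursor, 8 of 8 microglia, 7 of 7 endothelial and 7 of 8 neuron genes. Of 18308 cell barcodes, 205 occurred in more than 1 library. Levels below are in CPM, UMIs of a gene scaled to the total UMIs of that cell type in that sample (counts per 1e6). A difference in a summed sample cannot tell fewer expressing cells from less RNA per cell.

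Of the members that were higher in TESS by the test below, Gfap, Lcn2 and Serpina3n have a promoter window in RefSeq (GRCm38.p6), and the bases before their start sites are shown because each was higher in TESS in at least 1 class. Gfap, on the minus strand at chr11:102897201-102897450, and Serpina3n, on the plus strand at chr12:104406458-104406707, are printed for the 250 bases before the start and overlap no GENCODE exon of the gene. Lcn2, on the minus strand at chr2:32387798-32387989, is printed only from base -250 to base -59, since the rest is annotated as untranslated region, and 139 of the 192 printed bases lie in an exon of another Lcn2 transcript. Capitals mark matches to the searched motifs.
Gfap: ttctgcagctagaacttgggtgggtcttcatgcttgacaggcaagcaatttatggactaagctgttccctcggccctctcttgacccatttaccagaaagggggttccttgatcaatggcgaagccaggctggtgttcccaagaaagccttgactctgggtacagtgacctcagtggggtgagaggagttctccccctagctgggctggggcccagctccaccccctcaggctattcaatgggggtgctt
Lcn2: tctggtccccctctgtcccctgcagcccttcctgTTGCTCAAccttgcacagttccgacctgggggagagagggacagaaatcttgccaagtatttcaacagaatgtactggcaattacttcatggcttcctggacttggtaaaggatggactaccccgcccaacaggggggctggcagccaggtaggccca
Serpina3n: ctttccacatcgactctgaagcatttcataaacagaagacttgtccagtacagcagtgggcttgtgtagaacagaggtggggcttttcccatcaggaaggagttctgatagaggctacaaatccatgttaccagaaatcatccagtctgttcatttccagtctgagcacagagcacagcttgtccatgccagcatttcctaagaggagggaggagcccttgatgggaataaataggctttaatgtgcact

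These 4 motifs were searched on both strands of the 250 bases before the start, in 8 members with a window: STAT (TTCNNNGAA), AP-1 (TGANTCA), C/EBP (TTGCNNAA) and the NF-kB consensus. No match to one of them overlapped a match to another. The STAT letters were in none of the 8 windows and in 7.02% of all 32851 windows. AP-1 was likewise in none of the 8, against 6.75% of all windows. The C/EBP letters occurred in Lcn2 from base -216 to base -209 and in C3 from base -45 to base -38, against 9.56% of all windows. NF-kB matches lay in the Vim window alone among the members, with 3 hits, 2 of which overlap, against 7.25% of all windows. A match is a description of these letters and not of binding.

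**Figure D1:**
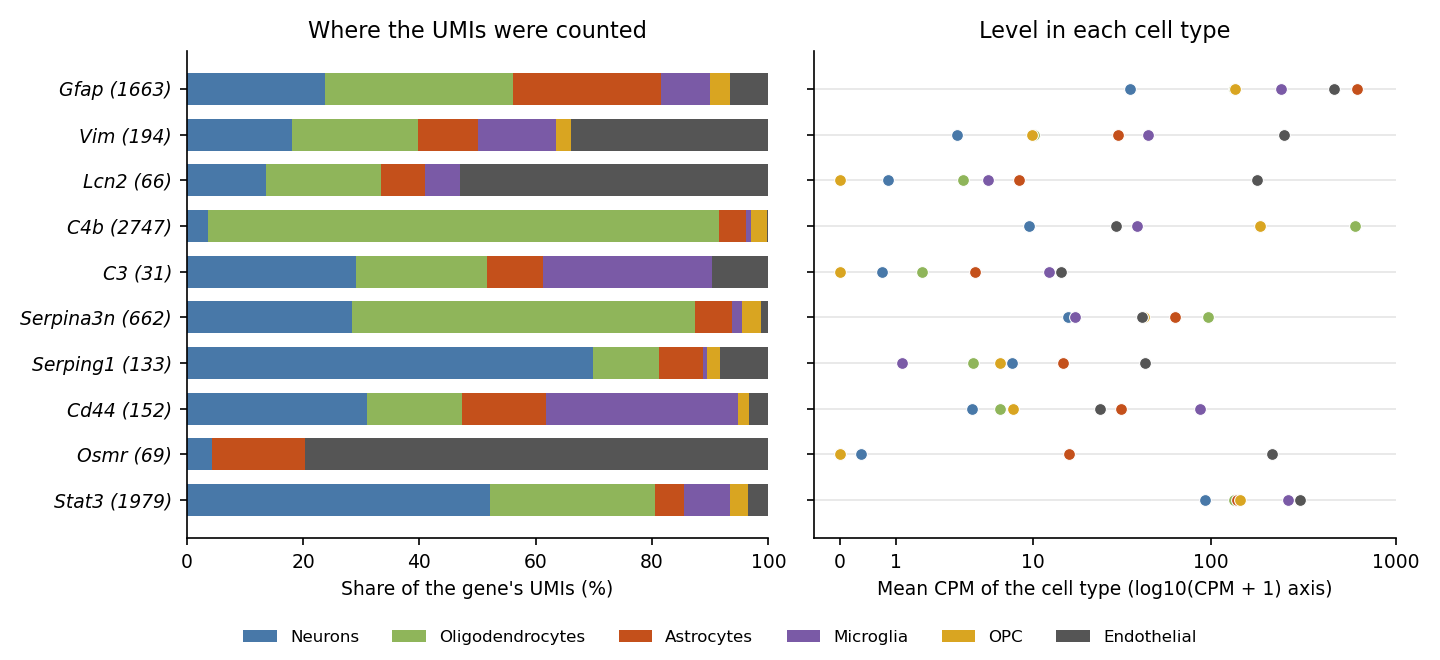
Left: share of each gene's UMIs counted in each of 6 cell types (horizontal axis, percent), with the gene's UMIs over 6 samples in parentheses. Right: mean CPM over 6 samples in each cell type on a log10(CPM + 1) axis. Only Gfap had its highest mean in astrocytes. C4b and Serpina3n were highest in oligodendrocytes, and Osmr, Lcn2 and Vim in endothelial cells.

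Although the list is named for astrocytes, 1 of the 10 genes, Gfap, had its highest mean CPM there. The highest type was endothelial cells for 6 genes, oligodendrocytes for 2 (C4b and Serpina3n) and microglia for Cd44. The 221 endothelial nuclei were few. Of the 6 genes highest in them, C3 (3 UMIs there) and Serping1 (11 UMIs) rest on almost no counts. The class named endothelial also held 8 pericyte and fibroblast markers, summed to 2869 to 3780 CPM in CON and 2696 to 3852 CPM in TESS. The part of such cells in the levels of these 6 genes was not tested. Over the 10 genes there are 50 neighbouring pairs in the order of the 6 cell types. The ranges over the 6 samples did not overlap in 2 of these pairs, Vim in endothelial cells over microglia and Gfap in oligodendrocytes over neurons. The ranges of the other 48 pairs overlapped. Inside the samples, the type with the higher mean lay above its neighbour in 6 of 6 samples for 11 of the 50 pairs, among them C4b in oligodendrocytes over astrocytes, Cd44 in microglia over astrocytes and Osmr in endothelial cells over astrocytes. Differences between cell types are descriptions without a test, since the types were named from the same nuclei.

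For the comparison of TESS with CON, UMIs were summed per sample and cell type and tested over all genes with edgeR, and genes with a Benjamini-Hochberg adjusted p under 0.05 count as called. Of the 10 members, 9 passed the filter on low counts in all nuclei summed, and 2 of them were called, both higher in TESS (Lcn2 and C4b), where 0.754% of 13391 tested genes were called. The CPM of the groups did not overlap for 6 of the 9, against 20.4% of all genes tested. The members were chosen with earlier results of these data known, so such counts are not read as enrichment over these shares. C3 was not tested in any class, and Lcn2 passed the filter only through the TESS samples, so that it had to differ to be tested. In oligodendrocytes 4 members were tested and 2 were called, both higher (C4b and Serpina3n), against 1.65% of 8796 genes, and the groups did not overlap for 4 of 4, against 19.6%. In astrocytes 3 were tested and 1 was called, Gfap, against 0.976% of 2049 genes, with no overlap for 2 of 3, against 16.6%.

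Neurons gave 0 calls among 5 tested members, with 3 at an unadjusted p under 0.05 in edgeR, where 1.04% of 11686 genes were called. DESeq2 called 0 as well, but it gave no adjusted p for 4 of the 5. Their groups did not overlap for 3 of 5, against 19.6% of genes. Microglia gave 0 calls among 2, with 1 at an unadjusted p under 0.05 and 0 called by DESeq2, against 0.6% of 2501 genes, and 1 of 2 did not overlap, against 17.4%. Endothelial cells likewise gave 0 calls among 2, with 1 at an unadjusted p under 0.05 and 0 called by DESeq2, against 1.54% of 583 genes, and 1 of 2 did not overlap, against 22.6%. Both counts of 1 are Stat3, which passed the filter there only through the TESS samples. They are therefore not read against these shares. No member passed the filter in oligodendrocyte precursor cells, where 0.155% of 1289 genes were called and 13.3% had groups that did not overlap. Of the 25 fold changes fitted for members, all but that of Serping1 in neurons were above 0. The direction was fixed by the filter for Lcn2 in all nuclei and Stat3 in endothelial cells.

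**Figure D2:**
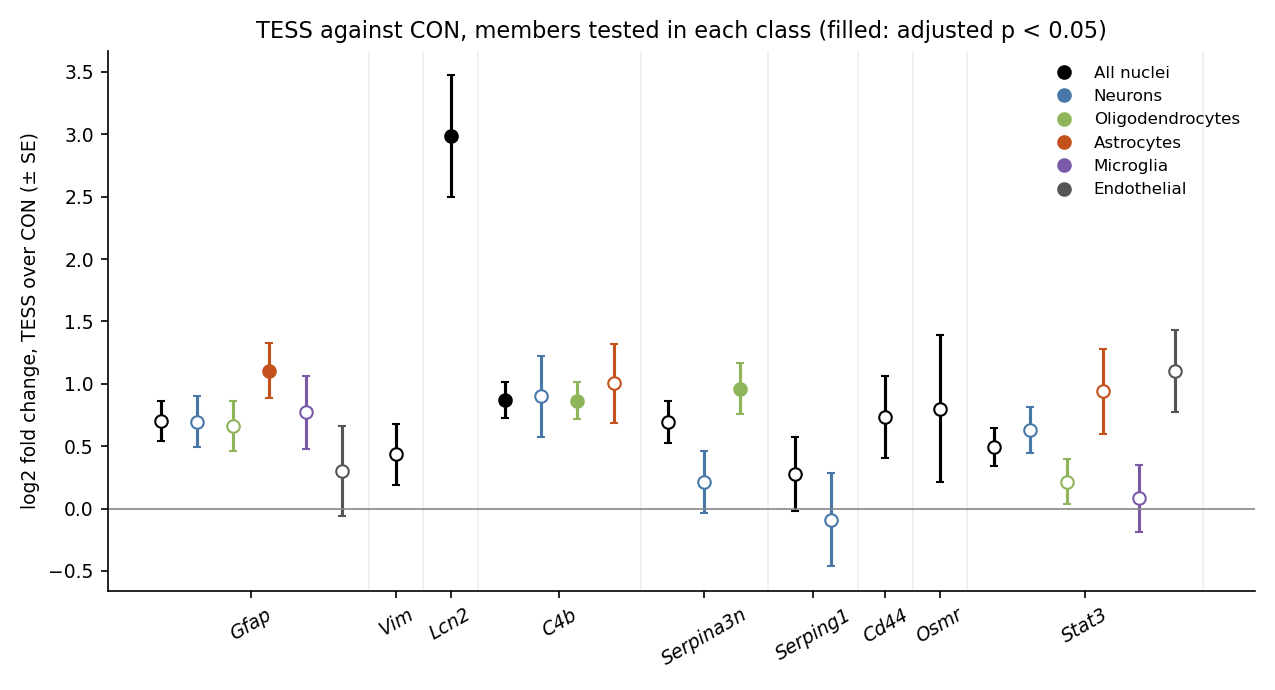
Log2 fold change of TESS over CON with its standard error (vertical axis) for each member and class in which it was tested (3 samples per group). Filled points passed an adjusted p of 0.05 over all genes of the class: Lcn2 and C4b in all nuclei, C4b and Serpina3n in oligodendrocytes, and Gfap in astrocytes. Lcn2 in all nuclei and Stat3 in endothelial cells passed the filter only through the TESS samples, so they had to differ to be tested.

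Gfap and Vim encode the intermediate filament proteins of astrocytes, glial fibrillary acidic protein and vimentin, the latter also made by vessel wall cells and other mesenchymal cells. Gfap rose in astrocytes of the TESS samples. Its level there was 423, 348 and 384 CPM in CON 1, 2 and 3 (101, 42 and 65 UMIs) and 661, 1216 and 658 CPM in TESS 1, 2 and 3 (49, 111 and 54 UMIs). The groups did not overlap, and TESS 2 stood well above the other TESS samples, which were nearly alike. The log2 fold change was 1.11 ± 0.22 (SE, n = 3 per group), a 2.15-fold difference, with an adjusted p of 0.00180 in edgeR. Without TESS 2 it was 0.72 and was no longer called (adjusted p = 0.182). Inside batch 3 it was 0.69 (adjusted p = 0.792).

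The share of astrocyte nuclei with a Gfap UMI was 22.9, 17.7 and 18.1% in CON 1, 2 and 3 and 28.0, 40.5 and 22.1% in TESS 1, 2 and 3, so TESS 3 fell inside the CON range on this measure. Depth differed in the same comparison: medians per astrocyte nucleus were 778, 895.5 and 635.5 UMIs in CON 1, 2 and 3 against 754, 473 and 488.5 in TESS 1, 2 and 3. Each nucleus was then thinned to 300 UMIs, which left out 16 CON and 29 TESS nuclei. Pooled over samples, the share with a Gfap UMI was 9.62% of 655 CON nuclei and 21.2% of 391 TESS nuclei. It was not computed by sample, so it does not show whether TESS 2 alone set the difference. No nucleus held more than 10 Gfap UMIs. The 10 defining astrocyte markers, which include the water channel gene Aqp4 and the glutamate transporter gene Slc1a2, gave 0 calls of 10 tested in astrocytes (2 at an unadjusted p under 0.05 in edgeR), with a median log2 fold change of 0.05 and summed levels of 15670 to 19012 CPM in CON and 17206 to 21025 CPM in TESS. Of the 4 haemoglobin genes listed as red cell markers, Hbb-bs rose in astrocytes (2.54 ± 0.47, adjusted p = 0.000814, groups overlapping, and 0.57 inside batch 3, adjusted p = 0.924), and their summed level there was 101 to 307 CPM in CON and 189 to 1721 CPM in TESS. Its part in the Gfap difference was not tested.

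Most Gfap UMIs were counted outside the nuclei named astrocytes. Of 1663 UMIs, 32.4% lay in oligodendrocytes, 25.4% in astrocytes and 23.8% in neurons. By CPM the order was astrocytes (615 ± 325 CPM, SD over 6 samples), endothelial cells (465 ± 146), microglia (239 ± 80.9), oligodendrocyte precursor cells (134 ± 49.3), oligodendrocytes (133 ± 41.1) and neurons (35.9 ± 10.9). Among the 3 CON samples alone, endothelial cells came before astrocytes. The defining astrocyte markers were spread differently from Gfap: summed, they reached 1.95% to 6.81% of their astrocyte level in the other types, while Gfap reached 5.84% of its astrocyte level in neurons, 21.7% in oligodendrocytes, 21.8% in precursor cells, 38.8% in microglia and 75.6% in endothelial cells. For every 100 UMIs of these markers there were 2.97 Gfap UMIs in astrocytes, 9.29 in neurons, 18.7 in oligodendrocytes and 35.9 in endothelial cells, so the 2 were not in 1 ratio across types. The share of nuclei with a Gfap UMI was 24.3% in astrocytes (median 652 UMIs) and 6.10% in neurons, a type that does not make the protein (median 1688 UMIs). The antisense lincRNA gene Gm26668 overlaps Gfap, and without a stated strand for counting the reads of these genes cannot be told apart.

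**Figure D3:**
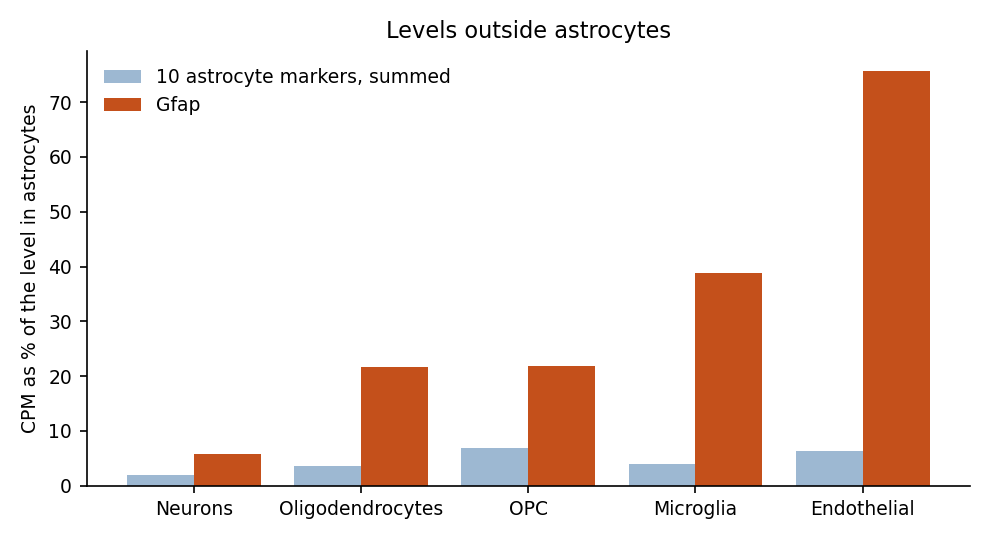
Mean CPM over 6 samples in 5 cell types as a percent of the mean in astrocytes, for 10 astrocyte markers summed (pale bars) and for Gfap (dark bars). The markers stay at 1.95% to 6.81%, while Gfap reaches 75.6% in endothelial cells.

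Outside astrocytes Gfap gave positive fold changes that edgeR did not call. Over all nuclei it was called in 6 of 13 alternative settings, among them DESeq2 (adjusted p = 0.0178), no filter (0.0135) and the replicate block (0.0303). In oligodendrocytes it was called with the block (adjusted p = 0.0433) and without CON 3 (0.0375), and in neurons with no filter (0.0442). In oligodendrocytes it was at 74.5, 96.0 and 131 CPM in CON and 158, 158 and 182 CPM in TESS (0.66 ± 0.20, adjusted p = 0.0986), without overlap. In neurons the fold change was 0.69 ± 0.20 (adjusted p = 0.106), in microglia 0.77 ± 0.29 (adjusted p = 0.245), in endothelial cells 0.30 ± 0.36 (adjusted p = 0.744) and over all nuclei 0.70 ± 0.16 (adjusted p = 0.0529). Precursor cells, at 57 UMIs, had means of 128 CPM in CON and 139.8 CPM in TESS (exact two-sided permutation p = 0.8). Astrocytes made up 8.04%, 3.81% and 6.56% of nuclei in CON 1, 2 and 3 and 3.52%, 6.09% and 7.03% in TESS 1, 2 and 3, so the share of astrocytes overlapped between groups.

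Vim was highest in the nuclei named endothelial, which also held pericyte and fibroblast markers. Its mean level there was 5.57 times its mean in microglia (44.9 ± 16.7 CPM) and astrocytes were at 30.6 ± 18.5 CPM. Endothelial nuclei, 221 of 18514, held 34.0% of its 194 UMIs. Endothelial levels were 327, 277 and 199.8 CPM in CON and 231, 230.0 and 234 CPM in TESS, inside one range (exact two-sided permutation p = 0.4). Over all nuclei Vim was at 11.2, 8.67 and 8.02 CPM in CON and 11.8, 13.4 and 13.9 CPM in TESS. These did not overlap, but the fold change of 0.44 ± 0.24 was not called (adjusted p = 0.417). In 42 oligodendrocyte and 35 neuron UMIs the groups also did not overlap, with means of 7.59 against 12.7 CPM and 2.11 against 4.46 CPM.

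In all, 17 pairs of a member and a cell type, 5 of them of Vim, were left out by the filter while having at least 20 UMIs. Each was compared with an exact two-sided permutation test of 3 against 3 samples, which cannot go below p = 0.1. The smallest adjusted p over these 17 pairs was 0.425, and 4 of the pairs (23.5%) had groups that did not overlap, against 13.3% to 22.6% of the genes tested in the 6 cell types.

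C4b encodes complement component 4, which is cleaved on a target surface and carries the classical cascade on to C3, the central component. Serping1 encodes the C1 inhibitor, a serpin that blocks the first step. C4b was a transcript of oligodendrocytes and rose there in TESS. Of 2747 C4b UMIs, 87.9% were in oligodendrocytes, at 601 ± 208 CPM. Astrocytes followed at 184 ± 112, precursor cells at 184 ± 174, microglia at 39.3 ± 23.1, endothelial cells at 29.9 ± 32.8 and neurons at 9.56 ± 3.97 CPM. Its CON levels in oligodendrocytes were 423, 464 and 359 CPM against 117, 108 and 142 CPM in astrocytes of the same samples, and its TESS levels 783, 746 and 829 against 148, 405 and 183 CPM. Within either group, then, oligodendrocytes lay above astrocytes in each sample. The share of nuclei with a C4b UMI was 18.1% in oligodendrocytes (median 433 UMIs) and 1.49% in neurons (median 1688 UMIs).

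From CON to TESS the oligodendrocyte level went from 423, 464 and 359 CPM (369, 488 and 302 UMIs) to 783, 746 and 829 CPM (606, 345 and 305 UMIs). The lowest TESS sample lay well above the highest CON sample. C4b rose 0.86 ± 0.15 on the log2 scale (SE, n = 3 per group, 1.82-fold, adjusted p = 0.00260), and it was called with any 1 sample left out. Inside batch 3 the fold change was 0.76 (adjusted p = 0.107). The share of oligodendrocytes with a UMI was 14.7, 17.4 and 11.0% in CON and 26.7, 22.3 and 21.4% in TESS, again without overlap. At most 7 UMIs came from 1 nucleus. After thinning to 300 UMIs, without 520 CON and 840 TESS nuclei, the shares pooled over samples were 9.51% and 17.9%.

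Of 8 oligodendrocyte markers, Opalin, a gene of mature myelinating cells, fell by 0.87 (SE 0.18, adjusted p = 0.0146) in the same nuclei, with -0.69 inside batch 3 (adjusted p = 0.185), and the other 7 were not called. Summed levels of markers of other cells in oligodendrocytes were 2.85 to 5.95 CPM in CON and 24.6 to 75.7 CPM in TESS for 9 neutrophil genes (1 at 0), 30.9 to 46.6 and 48.9 to 77.9 CPM for 7 monocyte and macrophage genes (3 at 0), and 129 to 153 and 195 to 277 CPM for 5 precursor genes (0 at 0). Their part in the C4b difference was not tested. C4a, the near-identical copy of C4b, was not among the symbols of the deposited count table, so which of the copies gave these reads is uncertain.

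C4b had higher mean values in TESS in the other glia as well. In microglia the groups overlapped, at 17.6, 42.8 and 10.9 CPM in CON and 48.9, 40.4 and 75.2 CPM in TESS. These came from 23 UMIs (exact two-sided permutation p = 0.2). In astrocytes the levels were 117, 108 and 142 CPM in CON and 148, 405 and 183 CPM in TESS, without overlap but not called (1.00 ± 0.32, adjusted p = 0.117). Neurons gave 0.90 ± 0.32 (adjusted p = 0.190). In oligodendrocyte precursor cells there were 7, 5 and 5 UMIs in CON and 34, 7 and 17 UMIs in TESS, that is 62.7, 53.4 and 72.3 and 494, 139.9 and 281 CPM. The CON samples were close together and the TESS samples far apart, with TESS 1 highest and TESS 2 lowest, and the groups did not overlap (exact two-sided permutation p = 0.1, the smallest possible). The share of precursor nuclei with a C4b UMI was 3.87, 4.85 and 5.10% in CON and 27.9, 4.63 and 12.1% in TESS, where TESS 2 fell inside the CON range. Pooled over samples the ratio of TESS to CON was 5.22 (95% interval 3.00 to 9.56, counting error only, each UMI taken as independent). In these nuclei the 5 precursor markers summed to 12880 to 13781 CPM in CON and 13503 to 16927 CPM in TESS, with 0 of 5 called by edgeR (1 at an unadjusted p under 0.05), and the 8 oligodendrocyte markers to 4723 to 5565 and 3257 to 6462 CPM, whose part in the result was not tested. The filter on low counts kept this pair out of the edgeR test. Without a filter the log2 fold change was 2.19 (adjusted p = 0.000469). In the 5 other settings that tested the pair it passed the filter only through TESS samples in which it was high, with 0 CON samples at the minimum, so nothing is read from those fits. Over all nuclei C4b rose 0.87 ± 0.14 (adjusted p = 0.0112, and 0.95 inside batch 3, adjusted p = 0.285). It was not called without CON 3 (adjusted p = 0.0582) or without TESS 3 (adjusted p = 0.0643).

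C3 was barely detected. Its 31 UMIs over 18514 nuclei were 5, 4 and 5 in CON 1, 2 and 3 and 8, 6 and 3 in TESS 1, 2 and 3, with 9 in neurons, 9 in microglia, 7 in oligodendrocytes, 3 in astrocytes, 3 in endothelial cells and 0 in precursor cells. Astrocyte C3 is a common label of a neurotoxic astrocyte state, and here 3 of 1091 astrocyte nuclei held a UMI (0.275%, 95% exact binomial interval 0.0567% to 0.801%). Over all nuclei the levels were 1.25, 0.991 and 1.49 CPM in CON and 2.77, 2.59 and 1.90 CPM in TESS, without overlap, as for 20.4% of the genes tested. C3 did not pass the filter, and the fit without a filter gave a log2 fold change of 0.95 that was not called (adjusted p = 0.538). No cell type could be singled out.

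Serping1 UMIs were mostly in neurons (69.9% of 133), which hold most of the RNA in the data. By CPM neurons were at 7.48 ± 2.66 CPM, below astrocytes (14.9 ± 19.9 CPM) and endothelial cells (43.4 ± 53.8 CPM), where 2 of the 6 samples had 0 UMIs. Neuron levels were 10.0, 8.07 and 5.61 CPM in CON and 9.41, 8.73 and 3.05 CPM in TESS, overlapping (-0.09 ± 0.37, adjusted p = 0.940). Over all nuclei the fold change was 0.28 ± 0.30 (adjusted p = 0.702), and inside batch 3 it was -0.07, so its direction depended on the samples used.

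Lcn2 and Serpina3n encode secreted acute-phase proteins, the iron-carrier binding lipocalin-2 and a serine protease inhibitor. Endothelial nuclei held 32 of 55 Lcn2 UMIs in the TESS samples and 3 of 11 in the CON samples. Of its 66 UMIs, 35 (53.0%) lay in endothelial cells, which made up 221 of 18514 nuclei. The endothelial UMIs were 1, 0 and 2 in CON 1, 2 and 3 and 9, 14 and 9 in TESS 1, 2 and 3, or 13.1, 0 and 36.3 CPM and 347, 402 and 264 CPM. Each TESS sample lay far above each CON sample. The pooled ratio was 18.0 (95% interval 5.63 to 91.9, counting error only, from 3 CON UMIs). That interval takes each UMI as independent, although several came from the same nucleus, so it is too narrow. The exact two-sided permutation p was 0.1, the smallest that 3 against 3 samples allow. The filter on low counts left the pair out of the edgeR test. Of the 5 alternative settings that kept it, the one without a filter called it (log2 fold change 3.78, adjusted p = 0.000249), and the 4 that left out 1 sample, where it passed the filter only through TESS samples, did not (3.49 to 4.68, highest adjusted p = 0.152).

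The Lcn2 UMIs came from few nuclei: 14 of 91 endothelial nuclei in TESS and 2 of 130 in CON. By sample the share was 2.33, 0 and 1.61% in CON and 12, 13.2 and 21.4% in TESS. In TESS 1, 6 of the 9 UMIs were from 1 nucleus, and in TESS 2, 6 of 14. After thinning to 300 UMIs, without 13 CON and 10 TESS nuclei, 0.855% and 9.88% had a UMI, pooled over samples. Lcn2 was detected in 0.116% of neurons (7 of 6035, median 1688 UMIs) and in 0 of 674 precursor nuclei, which allows a share of up to 0.546% (95% exact binomial interval). In endothelial nuclei the 7 defining endothelial markers, among them Cldn5 of the tight junctions and the VEGF receptor gene Flt1, summed to 10860 to 15743 CPM in CON and 12415 to 17334 CPM in TESS, with 0 of 6 tested called by edgeR (1 at an unadjusted p under 0.05). The 4 haemoglobin genes summed to 208 to 2997 CPM in CON and 977 to 10285 CPM in TESS there, the 7 monocyte and macrophage markers (3 at 0) to 0 to 26.2 and 86.2 to 176 CPM, and the 8 pericyte and fibroblast markers to 2869 to 3780 and 2696 to 3852 CPM, and their part in the Lcn2 difference was not tested.

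Outside endothelial nuclei Lcn2 had 3, 1 and 4 UMIs in CON 1, 2 and 3 and 10, 12 and 1 in TESS 1, 2 and 3, so that TESS 3 fell inside the CON range at 0.646 CPM. Over all nuclei the levels were 0.999, 0.248 and 1.78 CPM in CON and 6.57, 11.2 and 6.32 CPM in TESS (4, 1 and 6 and 19, 26 and 10 UMIs). Lcn2 rose 2.98 ± 0.49 on the log2 scale (n = 3 per group, edgeR adjusted p = 0.0109) and was called with any 1 sample left out. Inside batch 3 the value was 3.30. In these fits Lcn2 passed the filter only through the TESS samples. It had to differ to be tested, so the calls give no separate support. Without a filter the log2 fold change was 2.97 (edgeR adjusted p = 0.000444). Endothelial nuclei were 1.18%, 0.732% and 1.64% of CON 1, 2 and 3 and 0.947%, 1.34% and 1.28% of TESS 1, 2 and 3.

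Neutrophils store lipocalin-2, and neutrophil genes rose in the same samples. S100a8 and S100a9 encode the calprotectin subunits. Over all nuclei in edgeR they rose 5.09 ± 0.54 (adjusted p = 0.000492) and 4.85 ± 0.62 (adjusted p = 0.00131), with 4.58 and 5.00 inside batch 3. At changes of this size both passed the filter through the TESS samples, so they had to differ to be tested. They were 2 of the 3 tested of 9 listed neutrophil markers. The list summed to 5.94 to 9.16 CPM in CON and 22.5 to 40.6 CPM in TESS. Of 42 nuclei with an Lcn2 UMI, 2 (4.76%) also held a neutrophil marker UMI, and of all 18514 nuclei 255 (1.38%) did. In endothelial cells 2 nuclei held one, 1 of them with an Lcn2 UMI, and 7 of the 9 neutrophil markers were at 0 there. The part of neutrophil RNA in the Lcn2 difference was not tested.

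**Figure D4:**
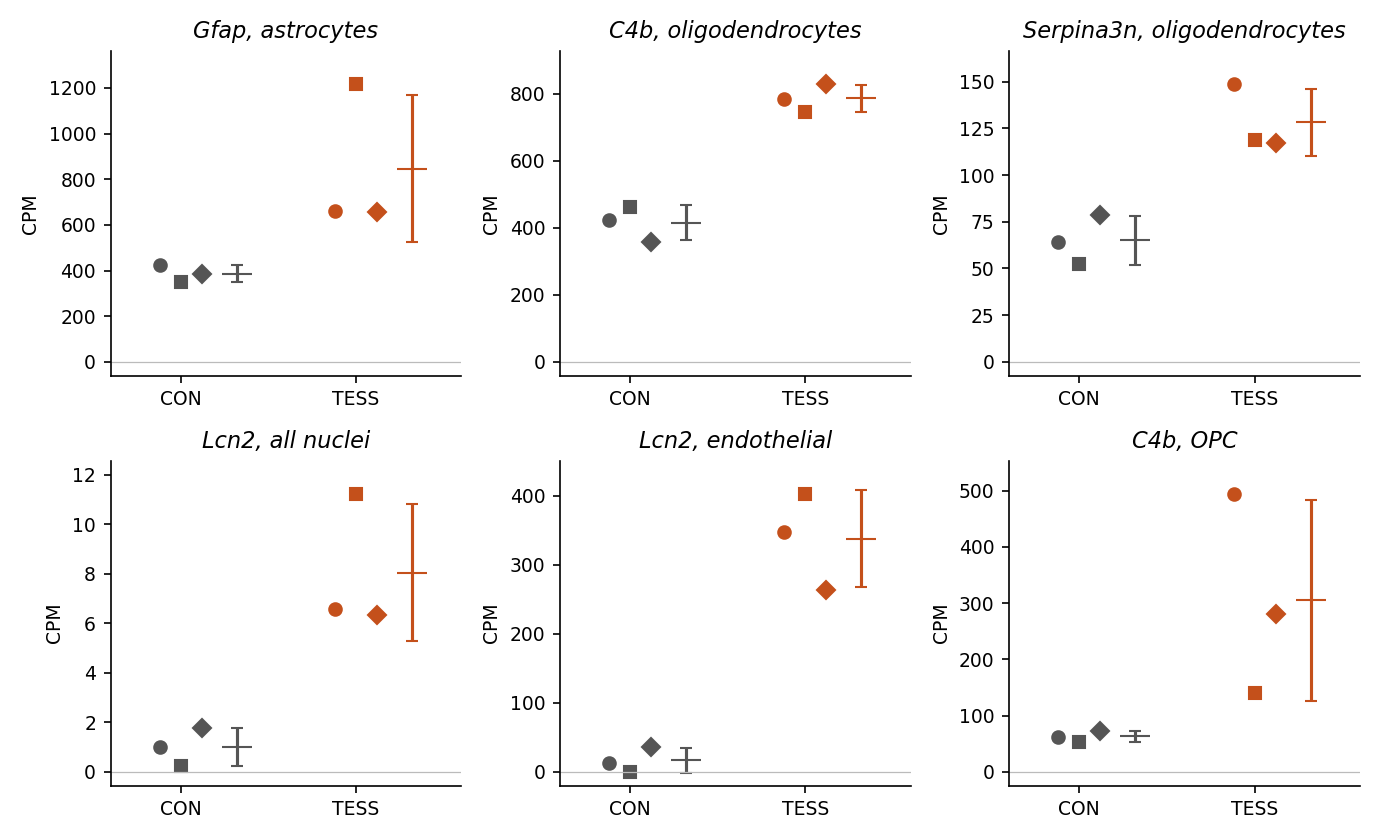
CPM in each sample (circles, squares and diamonds are replicates 1, 2 and 3) with mean ± SD beside them, for Gfap in astrocytes, C4b and Serpina3n in oligodendrocytes, Lcn2 in all nuclei and in endothelial cells, and C4b in oligodendrocyte precursor cells (OPC). In each panel the 3 TESS samples lie above the 3 CON samples, and the spread in TESS is wide for Gfap in astrocytes (658 to 1216 CPM) and for C4b in OPC.

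Serpina3n had its highest mean level in oligodendrocytes and was called higher there in TESS. Oligodendrocytes held 58.9% of its 662 UMIs and neurons 28.4%. The order by level was oligodendrocytes (96.6 ± 37.3 CPM), astrocytes (mean 63.3), precursor cells (42.7 ± 22.9), endothelial cells (42.0 ± 80.7), microglia (17.6 ± 9.21) and neurons (16.1 ± 2.58). Counted per nucleus in place of per UMI, endothelial cells came first, where 7 of 9 UMIs were from TESS 3. In oligodendrocytes the levels were 64.2, 52.3 and 78.5 CPM in CON (56, 55 and 66 UMIs) and 149, 119 and 117 CPM in TESS (115, 55 and 43 UMIs). TESS 1 was highest and the groups did not overlap.

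The oligodendrocyte fold change of Serpina3n was 0.96 ± 0.20 (SE, n = 3 per group, 1.95-fold, adjusted p = 0.0155), and 1.30 inside batch 3 (adjusted p = 0.0103). It was called in 2 of the 6 fits that left out 1 sample. The call was lost without CON 1 (adjusted p = 0.0512), CON 2 (0.115), TESS 1 (0.0802) or TESS 3 (0.0510). The share of oligodendrocytes with a UMI was 2.88, 2.88 and 3.22% in CON and 6.90, 4.53 and 4.08% in TESS. The levels of Opalin and of the neutrophil, monocyte and precursor markers given for C4b are those of the same oligodendrocytes, and their part in the Serpina3n difference was not tested. In astrocytes Serpina3n did not pass the filter. Its levels there were 29.3, 58.0 and 53.2 CPM in CON and 53.9, 87.7 and 97.5 CPM in TESS. These overlapped (43 UMIs, exact two-sided permutation p = 0.2). In neurons the levels overlapped (16.2, 15.0 and 13.6 CPM in CON, 21.0, 15.6 and 15.2 CPM in TESS, 0.21 ± 0.25, adjusted p = 0.735). Over all nuclei Serpina3n did not pass (0.69 ± 0.17, adjusted p = 0.0666). Serpina3n belongs to a cluster of close copies of which Serpina3c and Serpina3g were also counted, so its reads may include those of other copies.

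Cd44, Osmr and Stat3 are, in order, a hyaluronan receptor, the cytokine receptor chain for oncostatin M and the factor that such receptors activate. None of the 3 was called in any class. Osmr was the most restricted of them, though its main class, endothelial cells, also held pericyte and fibroblast markers. Endothelial cells held 79.7% of 69 UMIs, astrocytes 11 UMIs and neurons 3, and there were 0 in 8837 oligodendrocytes, 1656 microglia and 674 precursor cells, which allows shares of nuclei with a UMI of up to 0.0417%, 0.223% and 0.546% (95% exact binomial intervals). Its endothelial level was 223, 69.4 and 163 CPM in CON and 193, 345 and 293 CPM in TESS, overlapping because CON 1 lay above TESS 1 (exact two-sided permutation p = 0.2). Of the 11 astrocyte UMIs, 7 came from TESS 2. Over all nuclei the fold change was 0.80 ± 0.59 (adjusted p = 0.553) and inside batch 3 -0.73, so the direction turned with the samples used.

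Cd44 was at its highest in microglia, at 86.5 ± 28.3 CPM and 32.9% of 152 UMIs, ahead of astrocytes (31.7 ± 21.7 CPM). Microglial levels were 96.9, 57.0 and 54.3 CPM in CON and 76.9, 121 and 113 CPM in TESS, overlapping (exact two-sided permutation p = 0.2). Astrocyte levels overlapped too, at 8.38, 16.6 and 47.3 and 13.5, 43.8 and 60.9 CPM, from 22 UMIs. Over all nuclei the fold change was 0.74 ± 0.33 (adjusted p = 0.305), and inside batch 3 0.24.

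Stat3 was found in every cell type. The order of its 1979 UMIs by level was endothelial cells (304 ± 133 CPM), microglia (259.8 ± 39.7), precursor cells (144 ± 86.4), astrocytes (139 ± 75.4), oligodendrocytes (134 ± 20.6) and neurons (92.0 ± 31.3), although neurons held 52.1% of the UMIs. The ranges of all neighbours in this order overlapped, although microglia lay above precursor cells in 6 of 6 samples. In endothelial cells the levels were 170.3, 208 and 182 CPM in CON and 424, 374 and 469 CPM in TESS. These did not overlap, from 13, 6 and 10 and 11, 13 and 16 UMIs, and the fold change was 1.10 ± 0.33. It was not called (edgeR adjusted p = 0.129). In endothelial cells the filter asked for 290 CPM in 3 samples, which only the TESS samples reached. Stat3 thus had to differ to be tested there, and nothing is read from the lack of overlap. Neuron levels, 84.9, 57.3 and 74.8 CPM in CON and 96.9, 149.6 and 88.4 CPM in TESS, also did not overlap and were not called (0.63 ± 0.18, adjusted p = 0.101). Astrocytes gave 0.94 ± 0.34 with overlapping groups (adjusted p = 0.206), oligodendrocytes 0.21 ± 0.18 (adjusted p = 0.631), microglia 0.08 ± 0.27 (adjusted p = 0.944) and all nuclei 0.49 ± 0.15 (adjusted p = 0.139). Stat5a, on the other strand, overlaps Stat3, so the reads of these genes may be mixed.

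Whether a member's TESS effect in 1 cell type differed from the mean of its effects in the other 5 was tested in a joint fit with the sample as a block. Of 8 members in that fit, Lcn2 and Osmr could not be estimated because of zero counts. None of the 36 estimable contrasts of the other 6 was called, with 5 at an unadjusted p under 0.05 and a smallest adjusted p of 0.518. The shares of all 5940 genes called were 0.0673% in neurons, 0.219% in oligodendrocytes, 0.0337% in astrocytes, 0.0842% in microglia, 0% in precursor cells and 0.0673% in endothelial cells. The Gfap effect in astrocytes was larger than elsewhere by 0.55 ± 0.22 on the log2 scale (adjusted p = 0.696). The C4b effect exceeded that elsewhere by 1.27 ± 0.56 in precursor cells (adjusted p = 0.944). Serpina3n gave the smallest adjusted p, 3.18 ± 1.31 in endothelial cells, from 9 UMIs. The data thus did not show that these effects were particular to a cell type.

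Partner genes of these pathways are given as counts. With 0.754% of 13391 genes called in all nuclei, a count of 0 in a list of this size is near that share and is not read as a result. Of 26 genes of the interleukin-6 family and the JAK-STAT3 cascade, such as Il6st for gp130 and Socs3 for a feedback inhibitor, 24 were in the table and 15 tested in all nuclei, where edgeR called none and 1 had an unadjusted p under 0.05 (median log2 fold change 0.04, against -0.00 over all 13391 genes). None was called in any cell type either, among 13 tested in neurons, 11 in oligodendrocytes, 4 in microglia and 3 in astrocytes. Of 36 complement genes 31 were in the table and 16 tested in all nuclei, with none called and 1 at an unadjusted p under 0.05 (median 0.05). Csmd1, which encodes a membrane complement regulator, rose 1.08 ± 0.24 in oligodendrocytes (adjusted p = 0.0174, and 0.70 inside batch 3, adjusted p = 0.292), 1 of 8 tested there. Other acute-phase and serpin genes numbered 40, of which 22 were in the table and 6 tested in all nuclei, with none called and 1 at an unadjusted p under 0.05 (median 0.03). A2m, encoding the protease inhibitor alpha-2-macroglobulin, rose 1.33 ± 0.33 in astrocytes (adjusted p = 0.0278, groups overlapping, and 0.23 inside batch 3, adjusted p = 0.923), 1 of 3 tested there.

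Of 35 further reactive astrocyte genes 34 were in the table. None of the 16 tested in all nuclei was called, with 2 at an unadjusted p under 0.05 (median -0.02), nor was the 1 tested in astrocytes. Of 11 other intermediate filament genes, such as the neurofilament genes Nefl, Nefm and Nefh, 9 were tested in all nuclei, with none called and 2 at an unadjusted p under 0.05 (median -0.07).

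The genes whose levels most resembled those of a member were taken by Pearson r of log2(CPM + 1) over the 36 sums of 6 samples and 6 cell types, among 10190 genes with at least 200 UMIs. The sums share samples, libraries and depth, so r is a description. Nearest to Gfap were the metallothionein genes Mt1 (0.94) and Mt2 (0.91) and the matrix protein gene Sparc (0.89). For C4b they were Gpm6b (0.85), Megf10 (0.82) and 1700047M11Rik (0.82). Serpina3n lay nearest Neurl4 (0.85), Trappc10 (0.79) and Mapk8ip1 (0.75), and Stat3 nearest Cd2ap (0.84), Relb (0.83) and Ppard (0.80). The other 6 members had fewer than 200 UMIs.

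The members lie on 5 chromosomes of GRCm38 in GENCODE vM21. C4b is at chr17:34728380-34743882 and C3 at chr17:57203970-57228136, both on the minus strand. Gfap (chr11:102887336-102900912) and Stat3 (chr11:100885098-100939540) share chromosome 11, also on the minus strand. On chromosome 2 are Vim (chr2:13573927-13582826, plus strand), Lcn2 (chr2:32384633-32388252, minus), Serping1 (chr2:84765387-84775444, minus) and Cd44 (chr2:102811141-102901665, minus). Serpina3n is at chr12:104406729-104414329 on the plus strand and Osmr at chr15:6813577-6874969 on the minus strand. Counts are per gene, so exons and untranslated regions were not measured apart.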

How the data were processed

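Single-nucleus RNA libraries (10x Genomics version 2 chemistry, 5000 nuclei loaded) were made from 3 CON and 3 TESS samples. The authors deposited whole-number UMI counts per gene and nucleus with a library, a batch number and a cell type for each nucleus. Cell Ranger 2.2.0, Seurat 3 and the mouse build mm10/GRCm38 are named, per the submitters' processing notes. How nuclei were kept, whether introns and strand were used in counting, and how doublets were handled is not given in the sources used here. No doublet caller was run. Cell types were taken as the authors named them.

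UMIs were summed per sample and cell type. TESS was compared with CON over all genes with edgeR 4.0.16 in R 4.3.3 (limma 3.58.1): TMM normalization, filterByExpr with a minimum count of 10, quasi-likelihood F test and Benjamini-Hochberg adjustment within each class, called under 0.05. A joint fit over 6 cell types with the sample as a block tested differences between cell types. Pairs of a gene and a cell type that were left out by the filter but had at least 20 UMIs were compared by an exact two-sided permutation test of CPM. Shares of nuclei with a UMI were also computed after thinning to 300 UMIs, with the nuclei of a group pooled over its samples. The 95% intervals of shares are exact binomial (Clopper-Pearson). Intervals of counts cover counting error only and take each UMI as independent. The fits were tested on simulated data with known changes.

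The members and gene lists were chosen with earlier results of these data known. All 10 members are described, and of each gene list the called genes are named, up to 5 per class by size of change. For members with at least 200 UMIs the 3 most similar genes are named. Marker genes are named where they moved with a member. Alternatives were DESeq2 1.42.0, RLE normalization, no filter, the replicate number as a block, batch as a term, batch 3 alone, equal numbers of nuclei per cell type and leaving out each sample. Values inside batch 3 for called list and marker genes were added after seeing the data. Genes with fewer reads than the filter asks were not tested, and depth set by 424 to 707 UMIs per median nucleus limits what low genes can show. Gene positions are those of GENCODE vM21, and promoter sequences are those of RefSeq, GRCm38.p6.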

Additional observations from a re-analysis of the deposited data

How the results depend on the processing

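Of the 5 member results that were called, each kept its direction in each alternative that could test it. Lcn2 in all nuclei passed the filter only through TESS samples, so in fits with a filter its direction was fixed. Genes called over the table numbered 101 in all nuclei, 122 in neurons, 145 in oligodendrocytes, 20 in astrocytes, 15 in microglia, 2 in precursor cells and 9 in endothelial cells. With DESeq2 they were 154 in all nuclei, 6 in astrocytes, 1 in precursor cells and 2 in endothelial cells. With no filter they were 250, 335, 270, 27, 8 and 18 in all nuclei, neurons, oligodendrocytes, microglia, precursor and endothelial cells, and equal nuclei per cell type gave 170 in all nuclei. With batch as a term they were 0 in all nuclei (961 at an unadjusted p under 0.05 in edgeR), 0 in neurons (765), 73 in oligodendrocytes, 3 in astrocytes, 8 in microglia, 1 in precursor cells and 0 in endothelial cells (29). Inside batch 3 they were 0 in all nuclei (1091), 0 in neurons (843), 35 in oligodendrocytes, 0 in astrocytes (122), 5 in microglia and 0 in endothelial cells (34). Those 2 settings rest on 1 TESS against 2 CON samples of batch 3, and the lone TESS sample is assumed to vary like the CON samples. Leaving out each sample in turn gave 18 to 118 genes in all nuclei, 19 to 105 in neurons, 32 to 164 in oligodendrocytes, 8 to 22 in astrocytes, 1 to 48 in microglia, 2 to 14 in precursor cells and 0 to 7 in endothelial cells.

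Members called were 2 in all nuclei, 0 in neurons, 2 in oligodendrocytes, 1 in astrocytes and 0 in the other types. With no filter they were 4 in all nuclei, 2 in neurons (Gfap and Stat3), 1 in precursor cells (C4b) and 1 in endothelial cells (Lcn2). In all nuclei DESeq2 called 3 (C4b, Gfap and Lcn2) and equal nuclei per cell type 3 (C4b, Gfap and Serpina3n). With batch as a term they were 0 in all nuclei and 0 in astrocytes. Inside batch 3 they were 0 in all nuclei, 1 in oligodendrocytes (Serpina3n), 0 in astrocytes and 1 in precursor cells (C4b). Leaving out each sample gave 1 to 3 in all nuclei, 1 to 3 in oligodendrocytes, 0 to 2 in astrocytes and 0 to 1 in precursor cells. With 1 sample left out or inside batch 3, C4b in precursor cells passed the filter only through TESS samples. So did Lcn2 in all nuclei in each fit with a filter. Nothing is read from those calls. No interaction was called for a member under any alternative run. The cause of these changes was not tested.

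Of the 25 fold changes of members the sign turned for 4, none of them called. Osmr in all nuclei was -0.73 both with batch as a term and inside batch 3. Serping1 in all nuclei was -0.069 and -0.073, and Serping1 in neurons 0.027 and 0.029 in these settings and -0.31 to 0.17 when each sample was left out. Stat3 in microglia was -0.055 to 0.21 when each sample was left out. The sign also turned under at least 1 alternative for 11 of 36 differences of effects between cell types, none of them called, for 5 of 17 CPM differences of pairs the filter left out, and for 3 of 10 log ratios of the 2 highest cell types.

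With a replicate block 139 genes were called in all nuclei, 169 in neurons, 217 in oligodendrocytes, 24 in astrocytes, 101 in microglia, 12 in precursor cells and 19 in endothelial cells, and Gfap was called in all nuclei and in oligodendrocytes. Deviations from the group means correlated between samples of the same replicate number with r of -0.15, -0.01 and 0.02 over 13391 genes. The labels do not say whether the number ties a CON to a TESS sample. So few values of r cannot tell.

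The cell type with the highest level of a member changed for 4 of the 10. By UMIs per nucleus, endothelial cells led for Gfap and Serpina3n. In the CON samples alone endothelial cells led for Gfap, and microglia for C3 and Stat3. Without TESS 3 microglia led for C3.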

Other observations

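The authors divided the 6035 neurons into 38 subtypes, and the subtypes with at least 10 UMIs of a member are described for 4 members. These levels were looked at after their values were seen and are given without a test. Intervals are 95% exact Poisson intervals of the pooled counts and cover counting error only.

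Stat3 was highest in the subtype labelled MN, at 313 CPM (249 to 389) from 82 UMIs in 69 nuclei, where the median subtype was at 75.9 CPM. Its nuclei held 7.95% of the Stat3 UMIs of neurons and 2.23% of all neuron UMIs. The MN levels were 231, 264 and 223 CPM in CON 1, 2 and 3 and 254, 587 and 258 CPM in TESS 1, 2 and 3, so the groups overlapped and TESS 2 stood above the rest. Of the other subtypes with at least 10 Stat3 UMIs, the one labelled Pdyn was highest, at 139 CPM (99.9 to 189).

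Serping1 UMIs came from 27 subtypes. The subtype labelled Trh held 21 UMIs in 133 nuclei, 22.6% of the Serping1 UMIs of neurons against 1.56% of all neuron UMIs, at 114.5 CPM (70.9 to 175). These were 9, 3 and 4 UMIs in CON 1, 2 and 3 and 3, 1 and 1 in TESS 1, 2 and 3. The subtype labelled Crabp1 held 11 UMIs in 66 nuclei, at 83.4 CPM (41.7 to 149), and the median subtype was at 4.25 CPM.

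Serpina3n in neurons was highest in the subtype labelled V2a/Slc17a6, at 41.1 CPM (27.9 to 58.3) from 31 UMIs in 303 nuclei. Cd44 reached 10 UMIs in the subtype labelled Fxyd6, with 16.3 CPM (8.40 to 28.4) from 12 UMIs in 366 nuclei of 5 samples, which held 25.5% of the Cd44 UMIs of neurons and 6.29% of all neuron UMIs.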
